A study of Homo sapiens with 6 samples.

Results

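The genes described are the transcription factor ATF4, 5 genes it is known to activate (ASNS, CHAC1, TRIB3, DDIT3 and AARS1) and 4 enzymes of serine and glycine synthesis (PHGDH, PSAT1, PSPH and SHMT2). All probes whose platform gene symbol, updated through the gene ID, was one of these 10 genes were taken, which gave 10 of the 16922 genes and 14 of the 24526 probes on the array. The cells were HES3, a human embryonic stem cell line, and both groups had been grown on irradiated human feeder cells, strained to remove most feeders and plated on fibronectin. One group of 3 arrays received Activin A at 50 ng/ml for 3 days, and the other group of 3 arrays received Activin A and BMP4 at 50 ng/ml each for 3 days. Because the protocol text lists both factors for each sample, the groups were taken from titles and source names. Replicates are called biological in the design text, and no label ties them to separate cultures, so p-values measure the spread between these arrays. All arrays come from 1 cell line.

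ATF4 is the effector of the integrated stress response. Kinases that sense amino acid shortage, unfolded protein in the endoplasmic reticulum, viral RNA or lack of heme phosphorylate the initiation factor eIF2, which lowers protein synthesis while translation of the ATF4 transcript rises. Because ATF4 is controlled at translation, its transcript level need not follow its protein level. ATF4 raises genes that make, import and charge amino acids, and among them is the route from the glycolytic intermediate 3-phosphoglycerate to serine (PHGDH, PSAT1 and PSPH in that order). SHMT2 then turns serine into glycine in mitochondria and passes a one-carbon unit to folate.

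ATF4 binds as a dimer, often with a C/EBP protein, to a composite element whose core was searched here as TGATGNAA, or TTNCATCA on the opposite strand. RefSeq promoters of GRCh38.p14, each 300 bases from 250 before to 50 after a gene's start, were listed for 8 of the 10 genes, in 13 promoters. The core was found in 3 of these 8 genes, against 4.46% of all 27305 genes with a listed promoter and 3.62% of 35116 promoters. The windows that hold it are shown in the gene's own direction because they are the places in these promoters where the core was found, and the capitals mark it. Sequence outside these 300 bases was not searched, and no promoter was listed for SHMT2 and PSPH. A match is a description of the letters and not a measured site.
ASNS: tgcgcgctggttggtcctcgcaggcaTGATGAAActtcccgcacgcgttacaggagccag
CHAC1: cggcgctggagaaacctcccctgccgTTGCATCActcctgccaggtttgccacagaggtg
AARS1: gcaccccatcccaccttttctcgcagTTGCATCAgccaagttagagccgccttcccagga
The ASNS window is chr7:97872443-97872502 on the minus strand and its core starts 68 bases before the gene's start. The CHAC1 window is chr15:40953236-40953295 on the plus strand, with the core 209 bases before the start. The AARS1 window is chr16:70289660-70289719 on the minus strand, with the core 187 bases before the start. These letters were not in the listed windows of the other 5 genes.

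Values below are log2 signals after background correction and quantile normalization, and a difference is Activin A + BMP4 minus Activin A. Between 9348 and 10460 probes per array were detected, and arrays correlated at 0.985 or more within a treatment and at 0.926 to 0.945 between treatments. A gene passed the test at an adjusted p under 0.05 in limma, and 35.8% of the 8186 tested genes did so, 17.6% higher and 18.1% lower with BMP4. Of definitive endoderm markers, 6 of 8 tested were higher with BMP4 (summed linear level 7424 to 7881 with Activin A, 20350 to 21730 with both factors), and 5 of 7 pluripotency markers were lower and 1, LIN28A, higher. The endoderm marker GATA4 was well above background only on the arrays with both factors and entered the test through them, so it had to differ. Of 4 tested trophoblast and amnion markers 3 were higher and 1 lower (summed linear level 614 to 1016 with Activin A, 1696 to 1913 with both factors), while CGA and CDX2 were not above background on any array. GATA3 was well above background only with both factors and KRT7 only with Activin A. Each entered the test through the group where it was high and had to differ, so its call gives no support. HAND1, the brightest of the 4, is also a listed mesoderm marker. It measured 9.52, 8.28 and 8.35 with Activin A and 10.38, 10.49 and 10.27 with both factors. Of 3 tested mesoderm markers HAND1 was higher, and KDR and PDGFRA did not pass. Of 18 tested fibroblast markers, chosen for the feeder cells, 13 were lower and 4 higher, with a median difference of -1.52. Their summed linear level was 71016 to 84772 with Activin A and 42216 to 45110 with both factors, while POSTN and FBN1 were not above background on any array. In these bulk samples fewer cells of a type and less RNA per cell cannot be told apart. The part that feeder cells or any other cell type plays in the differences described here was not tested. Activin A arrays lay on 1 chip and Activin A + BMP4 arrays on 2 other chips, so chip and treatment cannot be told apart.

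Of the 4 serine and glycine enzymes, PSPH was lower with BMP4, and PHGDH, PSAT1 and SHMT2 did not pass the test. PHGDH, which oxidises 3-phosphoglycerate and commits it to serine (probe ILMN_1704537), measured 13.48, 13.28 and 13.48 with Activin A and 13.38, 13.29 and 13.19 with both factors. The groups overlapped, and the log2 difference was -0.12 ± 0.11 (SE, n = 3 per group; limma adjusted p = 0.413), with a 95% interval of 0.771-fold to 1.09-fold. PSAT1, the transaminase of the second step (ILMN_1692938), measured 10.99, 10.88 and 10.98 with Activin A and 10.91, 10.68 and 10.63 with both factors. Its difference of -0.21 ± 0.11 (SE) did not pass (limma adjusted p = 0.180), with an interval of 0.724-fold to 1.03-fold. The other PSAT1 probe (ILMN_1712563) was not above background on any array and was not tested.

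PSPH, the phosphatase that releases serine in the last step, was the enzyme that fell. Its probe (ILMN_2147114) measured 7.27, 7.08 and 6.94 with Activin A and 6.76, 6.74 and 6.70 with both factors, so that the lowest Activin A array lay above every array with both factors. It was 1.29-fold lower (log2 difference -0.37 ± 0.11 SE, limma adjusted p = 0.0360). The call was lost when any array but Activin A replicate 3 was left out. The call was also lost under 5 other settings given with the dependence on processing, normexp among them (-0.24). Without single arrays the limma adjusted p was 0.115 without Activin A replicate 1, 0.0751 without Activin A replicate 2, and 0.0700, 0.0844 and 0.0757 without Activin A + BMP4 replicates 1, 2 and 3. SHMT2 (ILMN_1661264) measured 11.64, 11.71 and 11.76 with Activin A and 11.76, 11.66 and 11.61 with both factors, which are overlapping groups. Its difference was -0.03 ± 0.10 (SE; limma adjusted p = 0.844), with an interval of 0.837-fold to 1.15-fold.

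ATF4 transcripts were read by 3 probes that differed in how far they changed. The brightest (ILMN_1672128) measured 12.45, 12.38 and 12.50 with Activin A and 12.43, 12.68 and 12.86 with both factors, and the groups overlapped. Its difference was 0.22 ± 0.13 (SE; limma adjusted p = 0.228), with an interval of 0.948-fold to 1.42-fold. The second probe (ILMN_2358457) measured 7.18, 7.47 and 7.62 against 7.89, 7.71 and 8.36, with no overlap. It was 1.48-fold higher (0.57 ± 0.19 SE, limma adjusted p = 0.0444), and the call was lost without Activin A replicate 1 (difference 0.44, limma adjusted p = 0.135), Activin A replicate 2 (0.0824), or Activin A + BMP4 replicates 1 and 3 (0.0711 and 0.102). The third probe (ILMN_1783394) measured 6.65, 6.05 and 6.25 against 7.37, 7.47 and 7.50, and all 3 arrays with both factors lay above the highest Activin A array. It was 2.19-fold higher (1.13 ± 0.16 SE, limma adjusted p = 7.56e-04). Of all tested probes, 35.4% passed the test. Under a normexp correction the difference of the third probe was 0.72. Averaging the ATF4 probes gave a difference of 0.64 (limma adjusted p = 0.00373). The transcript positions of the probes were not used here.

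**Figure D1:**
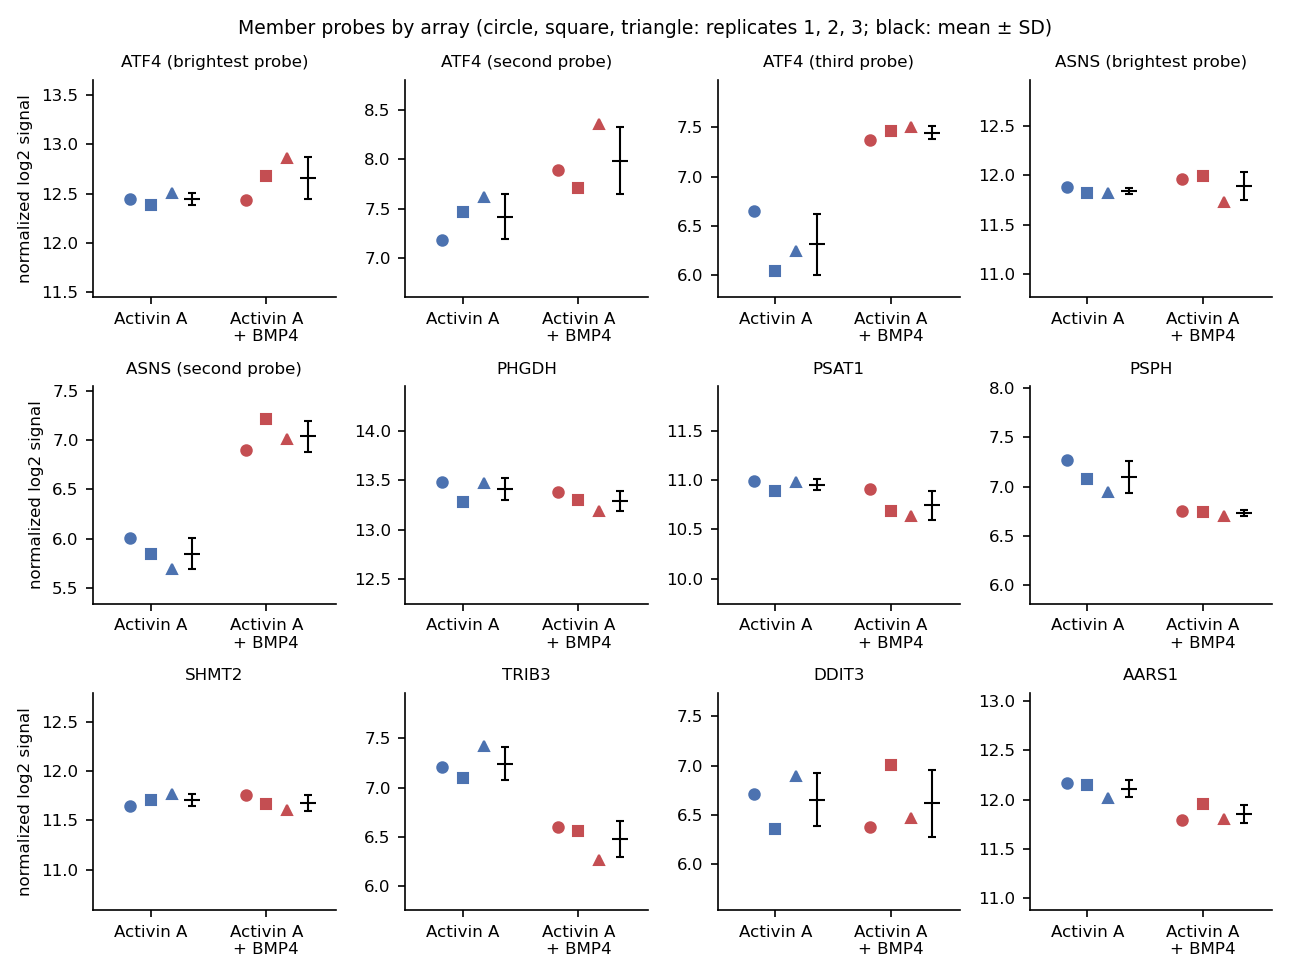
Normalized log2 signal (vertical axis) on each array, with 3 arrays for Activin A, 3 for Activin A + BMP4, and black bars for mean ± SD, for the 12 tested probes. TRIB3, PSPH and AARS1 separate downwards with BMP4, and the 2 dimmer ATF4 probes and the second ASNS probe separate upwards. The second ASNS probe was not well above background with Activin A and had to differ.

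Of the amino acid genes under ATF4, neither AARS1 nor the brightest ASNS probe passed the test. ASNS makes asparagine from aspartate and glutamine. Its brightest probe (ILMN_1796417) measured 11.88, 11.82 and 11.82 with Activin A and 11.96, 11.99 and 11.73 with both factors, and the groups overlapped (0.05 ± 0.11 SE, limma adjusted p = 0.759). The sign of that difference turned under median scaling (-0.11) and in the authors' values (-0.10). The second probe (ILMN_2398107) was not well above background on any Activin A array, where it measured 6.0, 5.85 and 5.69, and it was above background on all 3 arrays with both factors, at 6.90, 7.21 and 7.01. It entered the test only through the arrays with both factors. It was at least 2.02-fold higher with BMP4, or at least 1.51-fold under normexp. Having entered through the group where it was high, it had to differ, so its p is not given as support. The bound sets the mean with BMP4 against, per Activin A array, the higher of the lowest signal detected there and the probe's own. AARS1 (ILMN_1662364), which charges the alanine transfer RNA, measured 12.17, 12.15 and 12.01 with Activin A and 11.79, 11.96 and 11.80 with both factors. The arrays did not overlap, and the difference was -0.26 ± 0.10 (SE; limma adjusted p = 0.0870). AARS1 passed under normexp (-0.26, limma adjusted p = 0.0461), under median scaling (-0.39, 0.0354) and with a trended, robust prior (0.0193).

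Of the stress genes, TRIB3 fell and DDIT3 and CHAC1 gave no call. TRIB3, a pseudokinase that restrains ATF4 and CHOP, had values of 7.21, 7.10 and 7.42 with Activin A (mean 7.24 ± 0.165 SD, n = 3; ILMN_1787815). With both factors it had 6.60, 6.56 and 6.27 (mean 6.48 ± 0.184 SD, n = 3), all under the lowest Activin A array. It was 1.70-fold lower (-0.77 ± 0.13 SE, limma adjusted p = 0.00274). Leaving out each array in turn moved its limma adjusted p from 0.00518 to 0.0113, and under normexp the difference was -0.49. DDIT3, which encodes the stress factor CHOP (ILMN_1676984), measured 6.72, 6.36 and 6.89 with Activin A and 6.38, 7.01 and 6.47 with both factors. Those groups overlapped, and the difference was -0.04 ± 0.20 (SE; limma adjusted p = 0.905), with an interval of 0.714-fold to 1.33-fold. CHAC1, an enzyme that breaks down glutathione (ILMN_1739241), was not well above background on any of the 6 arrays and was not tested, so no value stands beside its promoter window.

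**Figure D2:**
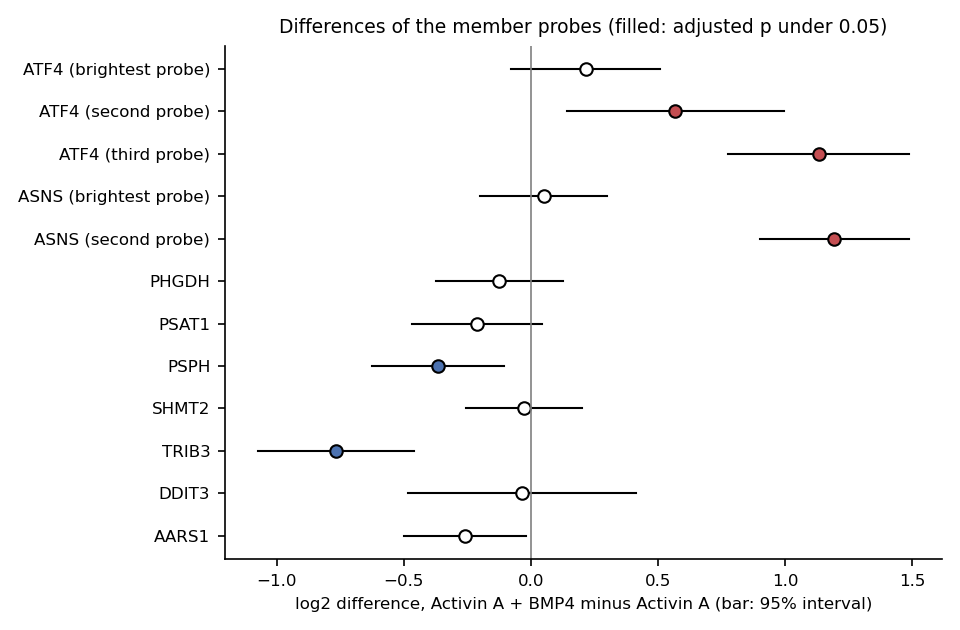
Log2 difference of each tested member probe, Activin A + BMP4 minus Activin A, with its 95% interval. Intervals of TRIB3, PSPH, AARS1 and of the dimmer ATF4 probes lie clear of 0, and AARS1 did not pass after adjustment. The dimmer ASNS probe was not well above background with Activin A and had to differ. Its point is therefore no exact difference, and its interval and adjusted p are no support.

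With 1 probe per gene, the brightest tested, 0 members were higher, 2 were lower (TRIB3 and PSPH) and 7 did not pass. At an unadjusted p under 0.05, 0 were higher and 3 lower. The 2 of 9 tested members past the threshold compare with 35.8% of all tested genes. Arrays did not overlap for 3 of the 9 members, against 50.2% of all tested genes. The median difference of the members was -0.12 and that of all tested genes 0.00193. The members' median was -0.0647 without Activin A + BMP4 replicate 3 and -0.190 without Activin A replicate 2. Array by array, Activin A + BMP4 replicate 3, on a chip of its own, had the highest values of the 3 ATF4 probes and the lowest of PHGDH, PSAT1, PSPH, SHMT2 and TRIB3.

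The probes of ATF4 differed in how far they changed, and ratios between probes within each array were examined after the values had been seen. Log2 ratios of a further probe to the brightest of its gene were tested for 1061 pairs in 924 genes, of which 31, or 2.92%, passed in limma. The ASNS ratio was -5.87, -5.98 and -6.14 with Activin A and -5.06, -4.78 and -4.71 with both factors. Because the second ASNS probe was not well above background on any Activin A array, its ratios there are bounds, and they are given as values with no test. That probe entered through the arrays with both factors and had to differ, so its gap from the brightest probe is no result. The third ATF4 probe rose against the brightest by 0.92 ± 0.18 (SE; limma adjusted p = 0.0271), from -5.80, -6.34 and -6.25 to -5.06, -5.22 and -5.36. That call was lost without Activin A replicates 2 and 3 (limma adjusted p = 0.111 and 0.107) and Activin A + BMP4 replicates 1 and 2 (0.0976 and 0.0898). Its difference ran from 0.51 under normexp to 1.21 in the authors' values, and with no background correction it did not pass (limma adjusted p = 0.0540). The second ATF4 probe did not pass (0.35 ± 0.19 SE, limma adjusted p = 0.358). A ratio within an array shows that the probes changed unequally, and not which one reads the gene.

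**Figure D3:**
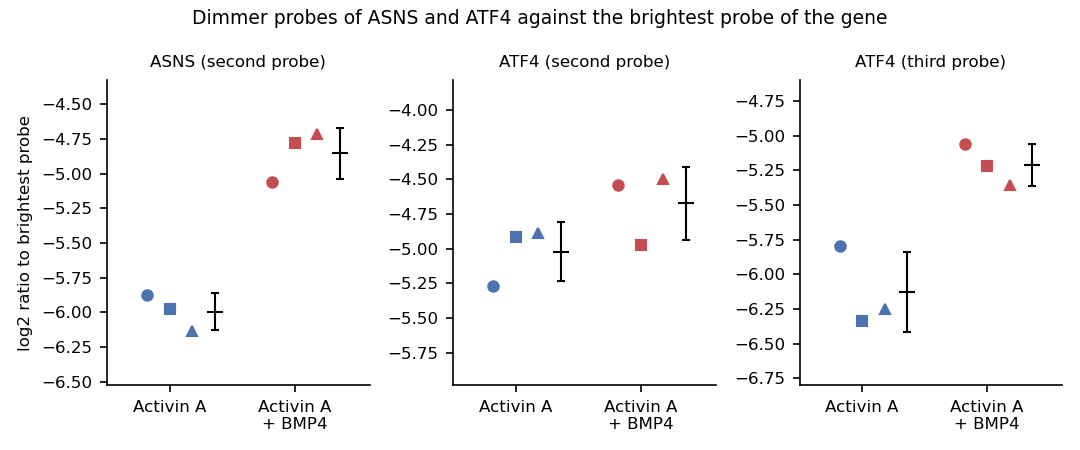
Log2 ratio of each further ATF4 and ASNS probe to the brightest probe of the same gene on each array, with black bars for mean ± SD (n = 3). The third ATF4 ratio is higher on all 3 arrays with both factors. The ASNS ratio is too, but its probe was not well above background with Activin A and had to differ.

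The wider pathway was read from 8 lists of 101 genes, of which 72 were tested. Across them 12 genes were higher, 11 lower and 49 did not pass. That is 31.9% called, against 35.8% of all tested genes, and the median difference was 7.67e-05. The counts of each list are descriptions and were not tested against that share. Of 9 further known ATF4 targets tested, 2 were higher and 5 lower, with a median of -0.36. The median was -0.0211 over all 14 listed genes with no filter and -0.56 over the 8 detected on all arrays. GDF15, a stress-secreted hormone, was 11.29, 11.69 and 11.44 with Activin A and 9.50, 9.50 and 9.45 with both factors, and fell 3.96-fold (limma adjusted p = 1.33e-05). STC2, a secreted glycoprotein, fell 2.55-fold (limma adjusted p = 8.67e-05), and DDIT4, an inhibitor of mTOR signalling, fell 2.46-fold (limma adjusted p = 2.11e-04). CEBPB and ATF3, outside the naming rule, were also lower, and VLDLR and PPP1R15A, outside it too, were higher. Without single arrays ATF3 and PPP1R15A lost their calls, with limma adjusted p up to 0.122 and 0.0788. The falls of GDF15, STC2 and DDIT4 passed under all alternatives run. The summed level of the fibroblast markers was also lower on the arrays with both factors, and its part in these falls was not tested.

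One-carbon and glycine genes split, with 2 of 9 tested higher and 2 lower. GLDC, of the mitochondrial glycine cleavage system, measured 11.66, 11.67 and 11.73 with Activin A and 10.54, 10.73 and 10.40 with both factors, and was 2.18-fold lower (limma adjusted p = 1.45e-04). MTHFD1, a cytosolic folate enzyme, was 1.65-fold lower (limma adjusted p = 0.00107). SHMT1, the cytosolic counterpart of SHMT2, was 1.67-fold higher, at 7.97, 7.89 and 8.19 with Activin A and 8.78, 8.72 and 8.77 with both factors (limma adjusted p = 0.00126). DLD, outside the naming rule, was also higher. MTHFD2, the mitochondrial partner of SHMT2, also outside the rule and chosen after its values were seen, differed by 0.24 ± 0.15 (SE; limma adjusted p = 0.262).

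Of 11 tested synthetases listed as ATF4 targets, 1 was higher and 2 lower, and of 5 others 0 passed in limma (1 higher and 1 lower at an unadjusted p under 0.05). EPRS1, which charges glutamate and proline, was 1.57-fold lower (limma adjusted p = 8.98e-04). GARS1, for glycine, was lower by a log2 difference of -0.41 ± 0.12 SE (limma adjusted p = 0.0269) and WARS1, for tryptophan, higher by 0.36 ± 0.11 (0.0297). Amino acid synthesis genes had 0 of 6 higher and 2 lower, namely CTH, of cysteine synthesis (-0.58 ± 0.13 SE, limma adjusted p = 0.00909), and ALDH18A1, of proline synthesis (-0.37 ± 0.11 SE, limma adjusted p = 0.0265). Amino acid transporters had 3 of 8 higher and 0 lower. They were SLC6A9, which carries glycine (0.50 ± 0.13 SE), and SLC3A2 and SLC7A5, which pair as a carrier of large neutral amino acids (0.49 ± 0.14 and 0.35 ± 0.10 SE), with limma adjusted p of 0.0167, 0.0217 and 0.0243. Leaving out single arrays took away the calls of WARS1, GARS1, ALDH18A1, SLC6A9, SLC3A2 and SLC7A5, with limma adjusted p up to 0.0969, 0.0957, 0.0871, 0.0546, 0.0719 and 0.0860. Over all alternatives the limma adjusted p reached 0.104 for WARS1 and 0.213 for SLC7A5. Transporters had 2 higher under median scaling and 1 in the authors' values. Synthetases listed as ATF4 targets had 0 higher and 3 lower under median scaling, and 0 higher and 2 lower in the authors' values.

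Upstream, 0 of 11 tested genes of eIF2, its kinases and its exchange factor, with GCN1 counted among them, passed in limma (0 higher and 3 lower at an unadjusted p under 0.05). Differences ran from -0.35 to 0.23. EIF2AK3 and EIF2B3, of the same list, had no probe, and PPP1R15B and IMPACT were not tested. Under normexp and under a trended, robust prior 3 genes passed as lower. Over the alternatives the list had 0 to 1 higher and 0 to 3 lower. Chaperones of the endoplasmic reticulum, which belong to the parallel branch of the unfolded protein response, had 4 of 13 higher and 0 lower, with a median of 0.25 that was 0.115 without Activin A + BMP4 replicate 3 and 0.160 without Activin A replicate 1. DNAJB11 measured 12.25, 12.07 and 12.13 against 12.62, 12.64 and 12.62 (limma adjusted p = 0.00602), and HYOU1 and MANF were 0.52 ± 0.16 and 0.35 ± 0.10 (SE) higher (limma adjusted p = 0.0356 and 0.0233). CRELD2, outside the naming rule, was also higher. None of the 4 passed under median scaling or in the authors' values, and HYOU1, MANF and CRELD2 lost their calls when single arrays were left out, with limma adjusted p up to 0.0982, 0.0765 and 0.130. CRELD2 lost its call without any one of the 6 arrays.

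**Figure D4:**
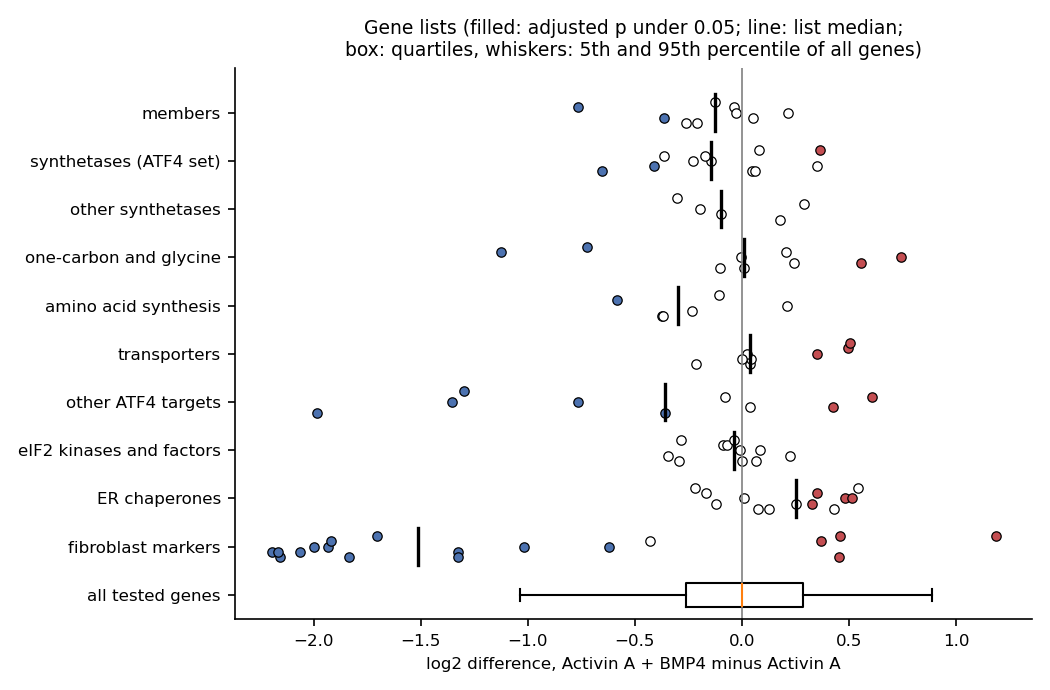
Log2 difference of every tested gene in the members, in the 8 pathway lists and among the fibroblast markers, Activin A + BMP4 minus Activin A. A box shows all tested genes. Of the further ATF4 targets 5 of 9 are lower, and the transporters and chaperones past the threshold are all higher.

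Over the 6 arrays, the genes whose centred log2 values lay nearest to those of the brightest ATF4 probe were RHOT2, ATP1B3, MTX2, MCM8 and TM9SF3, at a root mean square distance of 0.0346 to 0.0522. Those nearest to PHGDH were RWDD1, BEX2, DPAGT1, TLCD1 and PSME1, at 0.0146 to 0.0335. With 6 arrays such nearness is a description only.

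**Figure D5:**
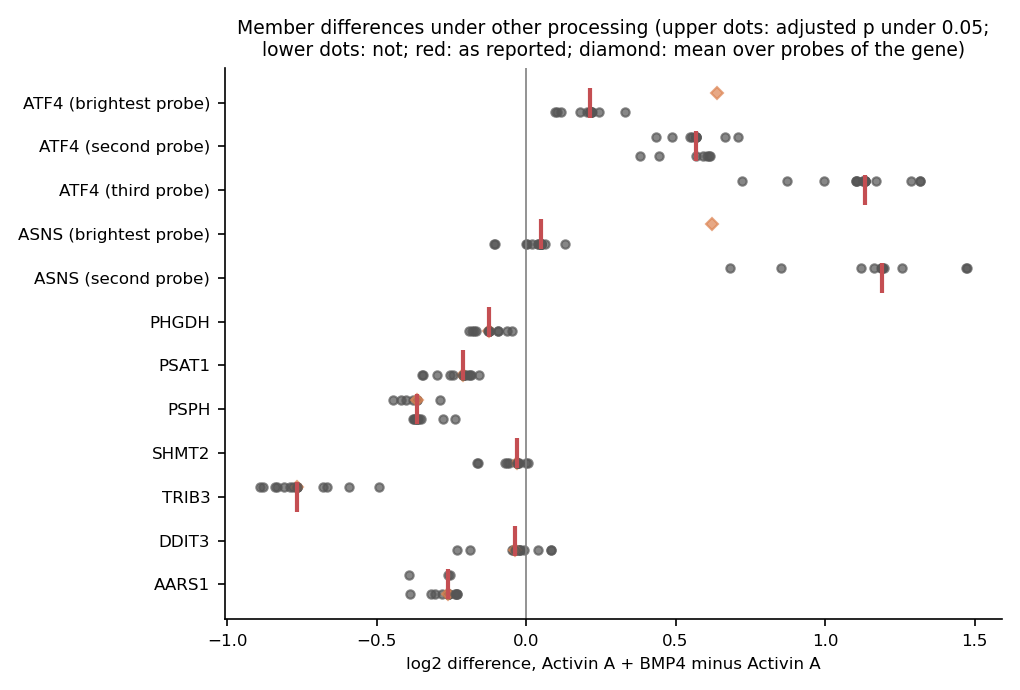
Log2 difference of each member probe under the processing used and under each alternative, Activin A + BMP4 minus Activin A. TRIB3 stays below 0 and the third ATF4 probe above 0 throughout, while SHMT2, DDIT3 and the brightest ASNS probe cross 0.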

How the data were processed

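Total RNA from 6 HES3 samples was biotin-labelled for Illumina bead arrays, per the labels' protocols. The deposited signals are linear intensity values, called non-normalized per the file headers. From 22.2% to 24.6% of each array's values were negative, so background had already been taken off. The deposited detection score rose with the signal and was read as 1 minus a detection p-value. The authors' processed log2 values were used as an alternative. Over 6507 bright probes, adding 1 constant per probe and 1 per array to the log2 signal gave these values to within 1.20e-06, with array medians of -0.147 to 0.147, and the baseline on which probes were centred is unknown. The scanner's software was not given in the sources used here.

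The neqc function of limma 3.58.1 (R 4.3.3) corrected and quantile-normalized the signals, taking the negative controls from detection p-values and an offset of 16. Probes with a detection p under 0.01 on at least 3 arrays were tested (10116 of 24526, in 8186 genes) with lmFit and eBayes, two-sided, with Benjamini-Hochberg adjustment over all tested probes. A gene was represented by its brightest tested probe. The platform table gave 1 symbol for 21834 probes and none for 2692, and 21813 were updated by gene ID. The fit was tested on simulated data. The number of arrays limits the precision.

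The members and the gene lists were chosen with earlier results of these data known. Genes named are the 10 members, the up to 3 most different called genes of each pathway list, and the 5 genes nearest in pattern to ATF4 and to PHGDH. A few more list genes that this rule does not cover were picked with their values in view. Samples were grouped by titles. Same-numbered arrays of the groups did not deviate together (correlations 0.03, -0.03 and -0.05). Alternatives were other background corrections, offsets, normalizations and filters, the authors' values, probe averages, chip and replicate blocks, another prior and leaving out each array. The bound under normexp and the probe ratios were added after the data had been seen.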

Additional observations from a re-analysis of the deposited data

How the results depend on the processing

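The members' differences were refitted under each alternative, and 180 of 209 such comparisons kept direction and side of the threshold, 17 lost a call, 5 gained one and 7 turned sign. The filters, the replicate block and the trended, robust prior leave a probe's difference as it was. Under them only the side of the threshold could change. TRIB3 and the third ATF4 probe passed in limma in every alternative run, with adjusted p up to 0.0113 and 0.00437. PSPH lost its call under normexp (-0.24, limma adjusted p = 0.0569), median scaling (-0.36, 0.0888), no filter (-0.37, 0.0741), and a trended, robust prior (-0.37, 0.0849). The second ATF4 probe lost it with no background correction (0.61, limma adjusted p = 0.0640), in the authors' values (0.60, 0.0507) and with no filter (0.57, 0.0901). AARS1 gained a call under normexp (-0.26), median scaling (-0.39) and the other prior (-0.26). The brightest ASNS probe turned to -0.11 under median scaling and to -0.10 in the authors' values. With probes averaged, members higher numbered 2, ATF4 (0.64) and ASNS (0.62), but the ASNS average rests on a probe not well above background with Activin A and supports no call. Members lower numbered 1 with no filter. The cause of these changes was not tested. Leaving out single arrays gave differences of -0.44 to -0.28 for PSPH, 0.38 to 0.71 for the second ATF4 probe, -0.0692 to 0.00612 for SHMT2 and -0.23 to 0.0832 for DDIT3, and 1 to 2 members lower. No value exists for the second ASNS probe without an array with both factors, because too few arrays then detect it. No label says whether replicate numbers pair the arrays, and so few arrays cannot show it. With a replicate block PSPH was -0.37 (limma adjusted p = 0.0517), 1 member was lower, and 1369 genes were higher and 1358 lower against 1444 and 1483, with 2 of 6 arrays nearest to their own number. The called pathway list genes were refitted too, together with the genes nearest in pattern to ATF4 and PHGDH, which had no call to lose. Of these 594 comparisons, 516 were unaltered in call, 76 lost it, 2 gained it and 0 turned sign. All losses fell on the list genes, and the gains on ATP1B3 and MCM8, so the unaltered share overstates how stable the list calls were. Transporters had 0 to 3 higher and chaperones 0 to 6 over the alternatives. Signal over background limits the dim probes. Under normexp the difference was -0.49 for TRIB3 against -0.77, and 0.72 for the third ATF4 probe against 1.13.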

Other observations

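Among tested genes outside the lists too, 190 of 6807 with a listed promoter held the searched core. Of these, 26 were higher and 49 lower with BMP4, or 39.5% called, with a median log2 difference of -0.06. Of tested genes without the core, 34.6% were called, with a median of 0.00574. Among all tested genes 17.6% were higher and 18.1% lower. In the pathway lists the core was in 13 of 66 tested genes with a listed promoter (19.7%), against 2.79% of all tested genes with one. They were ATF3, CEBPG, GARS1, GOT1, IARS1, MARS1, MTHFD1L, NARS1, SLC1A5, SLC38A1, SLC3A2, SLC7A1 and TARS1. Of these 13, SLC3A2 was higher and GARS1 and ATF3 lower. These shares are descriptions and were not tested.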
